A study of Mus musculus with 16 samples.

Results

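The chromatin at the mouse apolipoprotein genes was examined in 8 tissues of fed and fasting animals. The 10 genes (Apoa1, Apoa2, Apoa4, Apoa5, Apob, Apoc1, Apoc2, Apoc3, Apoe and Apom) were taken by name out of 21938 protein-coding genes in the GENCODE vM21 annotation of GRCm38, of which 19719 had a peak near a start in at least 1 library. They lie in 5 loci. Apoa1, Apoc3, Apoa4 and Apoa5 form a cluster on chromosome 9, Apoe, Apoc1 and Apoc2 form a cluster on chromosome 7, and Apoa2, Apob and Apom lie alone on chromosomes 1, 12 and 17.

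Open chromatin was mapped by ATAC-seq, a method in which a transposase cuts and tags accessible DNA, in liver, kidney, brown adipose, white adipose, muscle, heart, spleen and lung. All animals were male C57BL/6 mice, either with free access to chow (fed) or deprived of food (fasting). Tissue powder of several mice was pooled for each tissue and state, so there was 1 library per tissue and state, 16 in all, and no replicate within a group. The tissues of each state were taken from one set of animals.

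Apolipoproteins are the protein part of the particles that carry fat and cholesterol in blood. The liver makes most of them, the intestine makes several, and macrophages, adipose tissue and brain are known sources of Apoe. Apoa1 and Apoa2 build high-density lipoprotein, Apob is the scaffold of very-low-density and low-density lipoprotein, and the C proteins set how fast lipoprotein lipase clears triglyceride from the particles.

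The 200 bases before the outermost annotated start of 5 genes are shown because peaks near the starts of these genes separate the tissues. The Apoa2 and Apoa5 starts had a peak in liver alone, and the Apoa1 start had one in liver and in a single heart library. The first bases of Apob had one mainly in liver and kidney, and the Apoe start had one in all 16 libraries. A summit can lie inside the gene, after the printed stretch. The sixth sequence is the middle of an element between Apoa1 and Apoc3 that had a peak in both liver libraries and in no other. All are RefSeq GRCm38.p6 genome sequence, 5′ to 3′, in the direction of the gene, and hold no annotated exon. They span chr9:46228380-46228579 (plus strand), chr1:171224854-171225053 (plus strand), chr9:46268433-46268632 (plus strand), chr12:7977448-7977647 (plus strand), chr7:19699189-19699388 (minus strand) and, for the element, chr9:46230861-46231060 (plus strand). Capitals mark the motif matches described next.
Apoa1: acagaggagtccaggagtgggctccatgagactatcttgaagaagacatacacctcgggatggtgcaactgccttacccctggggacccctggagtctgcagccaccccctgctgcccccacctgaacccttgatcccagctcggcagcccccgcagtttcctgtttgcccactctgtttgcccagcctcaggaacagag
Apoa2: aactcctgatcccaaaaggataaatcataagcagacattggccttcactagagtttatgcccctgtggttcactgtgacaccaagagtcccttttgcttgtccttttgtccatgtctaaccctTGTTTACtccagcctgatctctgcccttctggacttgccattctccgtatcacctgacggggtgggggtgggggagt
Apoa5: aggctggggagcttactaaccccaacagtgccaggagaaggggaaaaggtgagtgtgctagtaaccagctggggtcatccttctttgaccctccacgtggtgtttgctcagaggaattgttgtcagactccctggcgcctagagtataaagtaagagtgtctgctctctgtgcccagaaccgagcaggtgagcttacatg
Apob: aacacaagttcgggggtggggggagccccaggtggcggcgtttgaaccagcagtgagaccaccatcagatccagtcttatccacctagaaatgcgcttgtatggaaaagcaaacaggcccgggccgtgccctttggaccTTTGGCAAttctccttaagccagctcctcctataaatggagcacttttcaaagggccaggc
Apoe: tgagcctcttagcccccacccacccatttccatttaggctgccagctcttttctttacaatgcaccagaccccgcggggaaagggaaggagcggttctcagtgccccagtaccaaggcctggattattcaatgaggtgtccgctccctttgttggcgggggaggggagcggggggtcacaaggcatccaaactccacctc
Element after Apoa1: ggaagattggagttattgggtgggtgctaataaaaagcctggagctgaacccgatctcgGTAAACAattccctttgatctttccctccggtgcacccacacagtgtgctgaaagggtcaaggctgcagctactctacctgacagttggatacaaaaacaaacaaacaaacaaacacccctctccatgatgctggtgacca

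The motifs searched, on both strands, were those of hepatic factors: CAAAGTCCA or CAAAGTTCA for HNF4, AGGTCANAG for a direct repeat bound by nuclear receptors, GTTAATNAT for HNF1, TGTTTAC for FOXA and TTGCNNAA for C/EBP. The start stretches were searched for the 8 genes that had an entry in the RefSeq promoter table, which were all but Apoc1 and Apoc3. The FOXA letters stood at -77 to -71 before Apoa2, and 2.05% of the 21938 protein-coding starts held them in a stretch of this length. The C/EBP letters stood at -61 to -54 before Apob, against 7.19% of all starts. Apoa4 held the HNF4 letters at -34 to -26, against 0.556% of all starts, and the HNF1 letters at -173 to -165, against 0.574%; its stretch lies in an exon of the overlapping gene Gm47528 and is not printed. The direct-repeat letters were found before none of the 8 starts and before 1.203% of all starts. The FOXA letters were also present in the element after Apoa1, at bases 60 to 66 of the printed run, and in 2.95% of the central 200 bases of 649694 elements across the genome. Each match is a run of letters and not a measured binding site.

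Each deposited list held between 298996 and 299529 peak rows, and every row was ranked within its own list by -log10 p, from near 0 for the weakest to 100 for the strongest. The promoter rank of a gene is the percentile of its strongest peak with a summit within 3000 bp of an annotated start. It is 0 where no peak was listed. The same rank within 1000 bp of a start was taken as the alternative. Distances of summits and elements from a gene are counted from its nearest annotated start, and the 10 genes have 34 distinct starts. Distances given for the same gene can therefore refer to different starts. Depth is not stated in the files, but the tags at a summit and the tags expected there could be solved from fold and p. Background tags, the expected number far from peaks, ran from 2.8 in fed liver, the shallowest, to 12.77 in fed brown adipose, with 2.82 in fasting liver. In 8 libraries every row had q under 0.01, so that a missing peak there may lie past the end of the list. Of 10 hepatocyte marker genes, all 10 had a promoter peak in both liver libraries and 9 had higher ranks in both than in the other 14. Outside liver the markers with a peak numbered 0 to 5 per library, apart from kidney with 6 (fed) and 8 (fasting), and Alb was at 0 in all 14 but fasting kidney, where it ranked 45.6. In such bulk tissue, fewer cells of a type and less accessibility per cell cannot be told apart.

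Close to their starts, most of these genes ranked highest in liver by -log10 p. Within 1000 bp, 6 of the 10 (Apoa1, Apoa2, Apoa4, Apoa5, Apoe and Apom) ranked higher in both liver libraries than in each of the other 14, while 5.23% of 18791 genes did so. Within 3000 bp, 2 of the 10 did (Apoa4 and Apoa5), against 6.1% of 19719 genes. With summits assigned only to the nearest protein-coding start there were 4, Apoa2, Apoa4, Apoa5 and Apom, against 5.97% of 19609 genes. The wider window took in stronger peaks that stood nearer to other genes or inside the gene, as given for each gene below. When rows were ranked by fold instead, the counts were 4 within 1000 bp, against 4.09% of all genes, and 0 within 3000 bp, against 4.63%. The 4 were Apoa1, Apoa2, Apoa5 and Apom, so Apoa4 and Apoe were no longer among them. Apoa5 then ranked only 22.7 in fed and 40.1 in fasting liver, and it counted because the other 14 libraries had no peak. The median difference, liver minus the other libraries, was 57.0 points over the 10 genes within 1000 bp and 31.3 within 3000 bp.

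**Figure D1:**
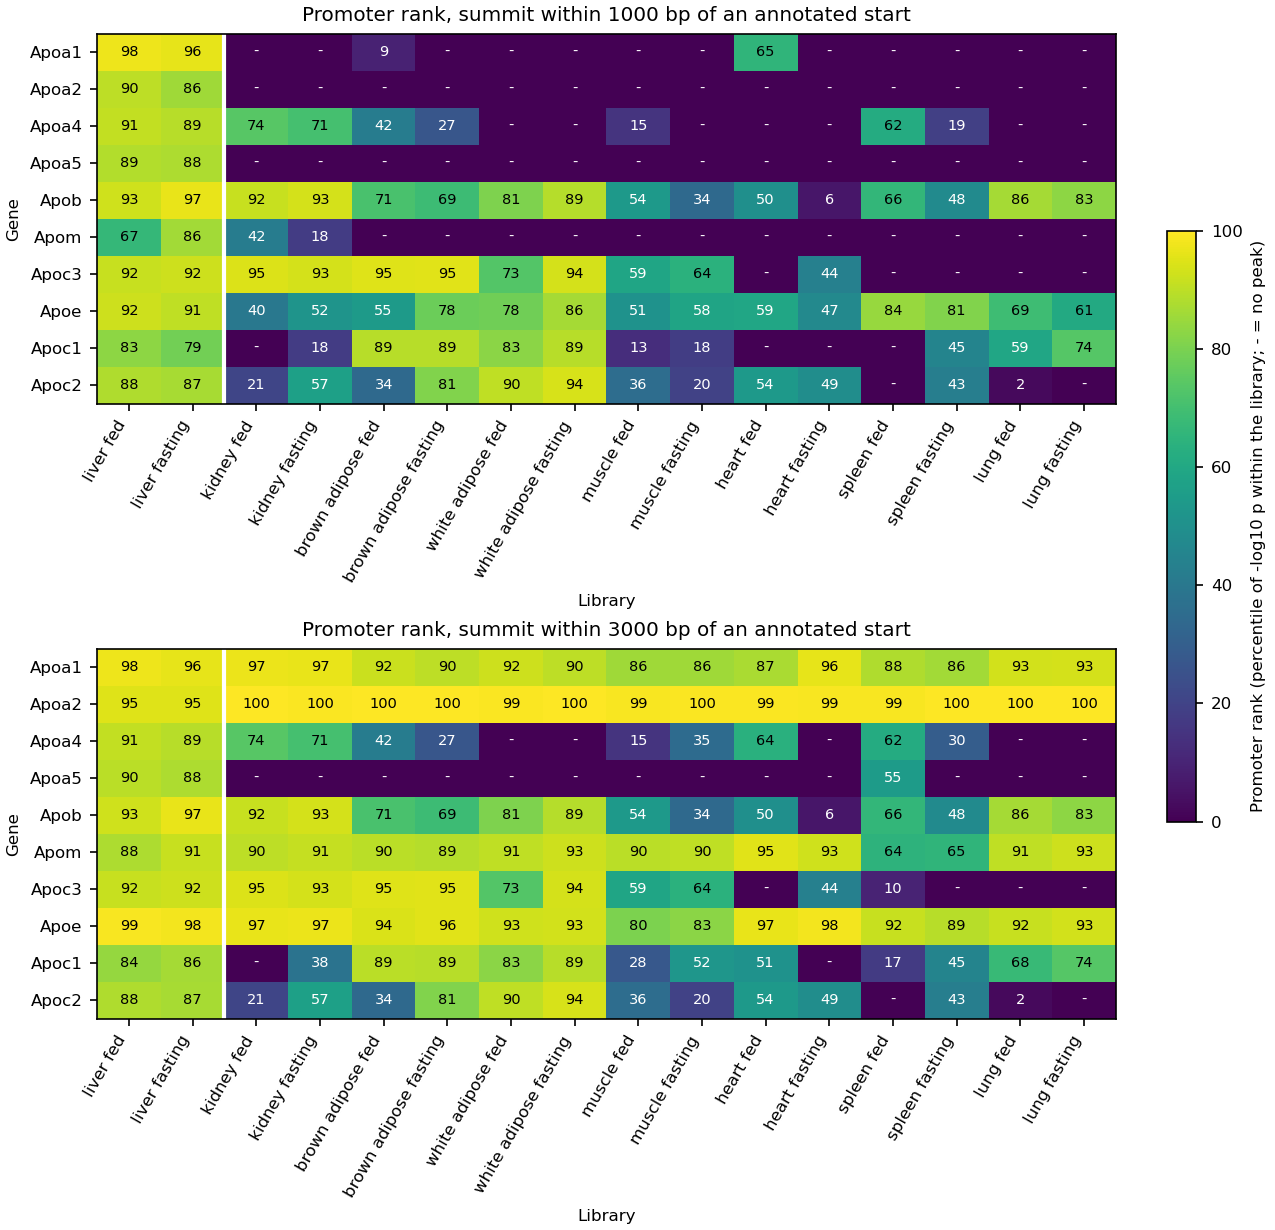
Promoter rank (percentile of -log10 p within the library, color and number) of the 10 genes (rows) in the 16 libraries (columns; liver left of the white line), with summits within 1000 bp (top) and within 3000 bp (bottom) of an annotated start; a dash marks no listed peak. Within 1000 bp Apoa2 and Apoa5 have a value in the liver libraries alone, whereas within 3000 bp Apoa2 lies between 95.04 and 99.8 everywhere.

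In the exact permutation test over the 120 ways to choose 2 of 16 libraries, adjusted over all genes by Benjamini-Hochberg, no gene passed: 0% of 19719 genes within 3000 bp and 0% of 18791 within 1000 bp had an adjusted p under 0.05, and the lowest adjusted p were 0.0627 and 0.0592. Unadjusted p under 0.05 were found for 6 of the 10 members within 1000 bp, all higher in liver, and for 5234 genes, of which 869 were higher. Within 3000 bp there were 3 members, 2 of them higher in liver, and 5281 genes, of which 1076 were higher. The 5 members Apoa1, Apoa2, Apoa4, Apoa5 and Apom reached within 1000 bp the smallest p that this exact test allows, 0.00833 (two-sided). Since the 2 liver libraries are 1 fed and 1 fasting pool, these p-values speak of the spread between these libraries only. With so few arrangements a gene passes the adjustment only if many others reach the smallest p too. The test also treats the 16 libraries as exchangeable, although they come in fed and fasting pairs of 8 tissues. Whole tissues allow fewer arrangements than 120, so these p-values are too small for a difference between tissues.

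Apoa1, the main protein of high-density lipoprotein and the activator of lecithin-cholesterol acyltransferase, is gene ENSMUSG00000032083.8 at chr9:46228580-46230466 on the plus strand. Its start had a peak of rank 97.6 in fed liver, with 143 tags where 30.9 were expected. The summit, chr9:46228658, lay inside the gene span and at -63 bp from the nearest annotated start. In fasting liver the start peak ranked 96.3, with 235 tags where 47.1 were expected and the summit 21 bp after that start. Of the other 14 libraries, fed heart had a peak at the start of rank 65.3, resting on 25 tags, and fed brown adipose had one of rank 9.42 at 933 bp. The other 12 had none within 1000 bp. All 16 libraries, however, had a peak in a coding exon of Apoa1 around 1371 bp after the start (element chr9:46229842-46230342), which ranked 85.9 in fed liver, 66.4 in fasting liver and up to 97.2 in fed kidney. This inner peak set the 3000 bp rank outside liver, which ran from 85.7 to 97.2 with a median of 91.1, so that 2 libraries passed the lower liver value. The liver start peak was high by p but not by fold, at 4.52 and 4.90, compared with 14.995 for the inner peak in fed kidney.

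Apoa2, the second protein of high-density lipoprotein (ENSMUSG00000005681.12, chr1:171225054-171226379, plus strand), showed the sharpest contrast between the windows. Within 1000 bp it ranked 90.0 in fed liver (72 tags, 16.8 expected) and 85.6 in fasting liver (153 tags, 46.4 expected), and no peak was listed in any of the other 14 libraries. Within 3000 bp the strongest summit in all 16 libraries stood near -2403 bp, beside the start of Tomm40l, which encodes a mitochondrial import channel protein. That peak ranked 95.3 and 95.04 in liver and from 99.0 to 99.8 elsewhere. The 3000 bp rank of Apoa2, liver minus the other libraries, was therefore -4.33 points, with both liver libraries below the other 14, and describes Tomm40l rather than Apoa2. A further element at chr1:171223688-171224188, at -1116 bp, ranked 94.7 (fed) and 94.0 (fasting) in liver, had 1.6 in fasting heart, and was absent from the other 13 libraries.

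Apom, which carries sphingosine-1-phosphate on high-density lipoprotein and is made in liver and kidney (ENSMUSG00000024391.7, chr17:35128997-35132050, minus strand), had a peak within 1000 bp in exactly those tissues. It ranked 66.6 in fed liver, 86.2 in fasting liver, 42.1 in fed kidney and 17.7 in fasting kidney, and was without a peak in the other 12 libraries. The liver values did not overlap those of kidney. The fed liver peak rested on 24 tags where 5.99 were expected. The 3000 bp rank, 64.5 to 95.5 outside liver and 87.6 and 91.5 in liver, was set in all 16 libraries by a summit near -2803 bp that lies closer to Bag6, a chaperone gene, and 12 of the other 14 libraries passed the lower liver value.

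Apoa4 and Apoa5 lie further along the chromosome 9 cluster and act in triglyceride handling. Apoa4 (ENSMUSG00000032080.6, chr9:46240696-46243459, plus strand) is a protein of chylomicrons, and Apoa5 (ENSMUSG00000032079.12, chr9:46268633-46271919, plus strand) promotes lipolysis by lipoprotein lipase. Apoa4 ranked 91.0 in fed liver, with 44 tags where 5.49 were expected and the summit at -78 bp. In fasting liver it ranked 89.3, with 107 tags where 18.7 were expected and the summit at 425 bp. Fed kidney followed with 74.0 and fasting kidney with 70.6, both with summits close to the start. Within 1000 bp the other 12 libraries ran from 0 to 61.5, the latter in fed spleen on 19 tags. Ranked by -log10 p, both liver values lay above both kidney values, and kidney lay above the rest. By fold within 1000 bp, liver had 88.7 fed and 73.2 fasting and kidney 81.7 and 74.3, so both kidney libraries passed fasting liver.

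Apoa5 had a peak near its start in 2 libraries within 1000 bp, as did Apoa2, and in 3 within 3000 bp, the fewest of the 10 genes. It ranked 88.6 in fed liver (99 tags, 31.6 expected, summit at -16 bp) and 87.8 in fasting liver (182 tags, 56.1 expected, summit at 48 bp) within 1000 bp. None of the other 14 libraries had a peak there. Within 3000 bp fed spleen had a peak of rank 54.96 on 18 tags at -1401 bp, and the fed liver value of 89.6 came from a summit at 2924 bp that lay nearer to the start of Zpr1, a zinc finger protein gene.

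Apob, without which neither chylomicrons nor very-low-density lipoprotein can be assembled (ENSMUSG00000020609.14, chr12:7977648-8016835, plus strand), had a peak near a start in all 16 libraries. It ranked 92.7 in fed liver and 96.8 in fasting liver. Outside liver the ranks ran from 6.15 in fasting heart to 93.4 in fasting kidney, with a median of 69.9, so fasting kidney passed fed liver. Kidney (91.8 and 93.4), white adipose (80.6 and 88.9) and lung (86.4 and 82.9) came closest to liver. Position separated these tissues further. The element at the start itself, chr12:7977449-7977949, ranked 92.7 and 95.5 in liver, 82.0 and 83.3 in kidney, 6.2 in fasting heart and 1.5 in fasting white adipose, and had no peak in the remaining 10 libraries. The peak of the other tissues lay further into the gene, in an intron, with summits between 727 and 958 bp in 13 of the 14 libraries outside liver, and fasting liver had its strongest summit there too, at 880 bp.

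The C proteins showed a different order. Apoc3, an inhibitor of triglyceride clearance (ENSMUSG00000032081.10, chr9:46232933-46235636, minus strand), ranked 91.7 in fed and 92.4 in fasting liver. Brown adipose was higher, at 95.1 and 95.3, as were kidney, at 94.7 and 93.5, and fasting white adipose, at 93.7. Fed white adipose had 73.3 and muscle 58.7 and 63.9. In liver, kidney, both adipose tissues and muscle the summits stood between 66 and 82 bp after the start. In fasting heart the peak of rank 43.6 lay at -865 bp, and lung, spleen and fed heart had none within 1000 bp. By fold, brown adipose (15.7 fed) and kidney (14.2 fed) stood above liver (3.98 fed).

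Apoc1, which slows lipoprotein uptake (ENSMUSG00000040564.14, chr7:19689481-19692660, minus strand), ranked 83.0 and 78.5 in liver within 1000 bp. Brown adipose (89.2 and 89.4) and fasting white adipose (89.1) were higher. The positions differed between tissues. The liver summits stood at a start, at -15 and -3 bp (chr7:19692619 and chr7:19692607). Those of brown adipose stood at 462 and 464 bp, in a coding exon (chr7:19692029 and chr7:19692027). Those of white adipose stood at 895 and 900 bp (chr7:19691596 and chr7:19691591). The adipose distances are from another annotated start than the liver distances. The element at the start, chr7:19692369-19692869, ranked 64.1 and 58.2 in brown adipose and had no peak in white adipose. Conversely the element around 464 bp, chr7:19691777-19692277, ranked 15.8 and 37.8 in liver.

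Apoc2, the cofactor that lipoprotein lipase needs (ENSMUSG00000002992.17, chr7:19671579-19677941, minus strand), ranked highest in white adipose, at 90.3 fed and 93.9 fasting, followed by liver at 88.1 and 86.9. Fasting brown adipose ranked 81.0 and fed brown adipose 34.3. The remaining 10 libraries lay between 0 and 56.9. The white adipose summits stood at chr7:19676000 and chr7:19676029, 864 and 835 bp after the nearest start and in an intron. The fed liver summit stood at chr7:19676459, 405 bp after the same start. The fasting liver summit stood at chr7:19678176, -235 bp from another start. Both white adipose values lay above both liver values, but by less than 9.72 points, the 95th percentile of the difference between the 2 states of liver for genes of mean rank over 80. The overlapping gene Gm44805 spans Apoc2 and Apoc4, so its peaks are shared with both.

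Apoe, the ligand by which remnants are taken up through the low-density lipoprotein receptor (ENSMUSG00000002985.16, chr7:19696109-19699188, minus strand), was accessible in all 16 libraries. Within 1000 bp it ranked 92.2 and 90.6 in liver by -log10 p, above all other libraries. These ran from 39.9 in fed kidney to 86.4 in fasting white adipose with a median of 59.8. The exact permutation p was 0.0167, and 0.0865 after adjustment over all genes. Ranked by fold within 1000 bp, both spleen libraries passed both liver libraries. The lower spleen value was then 71.1 (fasting) and the higher liver value 66.1 (fed), and the adjusted exact permutation p was 0.504. By -log10 p, spleen (84.5 and 81.2) came close to white adipose, but with summits at -522 and -521 bp. The element there, chr7:19699460-19699960, had a peak in spleen and lung (64.4 and 42.5) and in none of the other 6 tissues; it was picked out after its values were seen. Of 8 macrophage marker genes, 7 had a promoter peak in each spleen library and 5 and 4 in lung. Liver had 5 and 6, white adipose 5 and 5 and heart 3 and 5, and these tissues had no peak in the element. The part of macrophages in this result was not tested. Within 3000 bp the strongest Apoe summit in every library was near -2018 bp (element chr7:19700956-19701456), between Apoe and Tomm40, the mitochondrial import pore gene. It ranked 99.0 and 98.1 in liver and 80.2 to 98.2 elsewhere, and was slightly nearer to the Tomm40 start, at 1934 bp.

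The expected tags give a second view of these loci. The peak caller takes the expected number from the surroundings of a summit, so a high number means that tags were dense around the peak as well as in it. At the strongest member summits within 1000 bp in liver, the expected tags were 1.96 to 19.9 times the library background with a median of 7.32, and over all genes with such a peak in liver the median was 1.75. In the other tissues the median was 1.66 at the members and 2.46 over all genes. The fold enrichments of the members in liver lay between 3.05 and 7.95, with up to 15.7 in other tissues. Ranked by fold, Apoa1 within 3000 bp was lower in liver, with a difference of -22.4 points, and the fold divides by these expected tags.

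The clusters were next treated as loci, each gene body extended by 10000 bp on either side. Summits were more numerous in both liver libraries than in each of the other 14 at 7 of the 10 genes, all but Apoa2, Apoe and Apom, while 3.53% of 20740 genes showed this. Genes of a cluster share part of these windows, so the 7 are not separate counts. At Apob there were 28 summits in fed and 49 in fasting liver, against 1 to 11 in the other libraries (median 3.0). At Apoa4 there were 14 and 28, against 1 to 11. At Apom, among densely packed genes, there were 11 and 17 in liver and 11 to 22 elsewhere.

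Elements that do not overlap were set 250 bp to either side of the strongest summits of all libraries, and 123 lay in the 5 loci. A weaker summit up to 500 bp from such a centre gave no element of its own. It counted only where it lay within 250 bp of a centre. Of the 123 elements, 14 were liver-restricted, compared with 1.53% of the 649694 elements in the genome. These had a peak at q under 0.01 in both liver libraries and no listed peak within the element in the other 14. A peak of another tissue can still lie just outside it. Apob held 7 of its 23 elements, the Apoa1 cluster 4 of 38, the Apoe cluster 2 of 38, Apoa2 1 of 13 and Apom 0 of 11. By annotation 8 were intergenic, 3 lay in a coding exon, 2 in a UTR and 1 in an intron. At the other end, 16 of the 123 elements had a peak in all 16 libraries, against 29907 of the 649694 elements in the genome. Elements that reach 500 bp to either side gave 9 liver-restricted of 82.

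In the Apoa1 cluster the strongest liver elements lay at the Apoa5 end. The element chr9:46272590-46273090, 224 bp from the Zpr1 start, ranked 99.8 in fed and 99.5 in fasting liver, with 96.8 and 93.6 in heart and 43.4 to 71.6 in the other 12 libraries. Its neighbor chr9:46271935-46272435 ranked 97.8 and 97.7 in liver and at most 64.2 elsewhere, in fasting spleen. The start of Apoa1 followed. Of the liver-restricted elements, the one printed above (chr9:46230711-46231211, intergenic, between the ends of Apoa1 and Apoc3) ranked 96.2 and 93.4, and the Apoa5 start 88.6 and 87.8. By contrast, the intergenic element chr9:46246772-46247272, 6326 bp after the Apoa4 start, had a peak in all 16 libraries, from 73.6 in fasting spleen to 97.6 in fed liver. Of the 38 elements, 20 had a peak in both liver libraries, 10 in both kidney libraries, and 4 to 7 in both libraries of each other tissue.

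**Figure D2:**
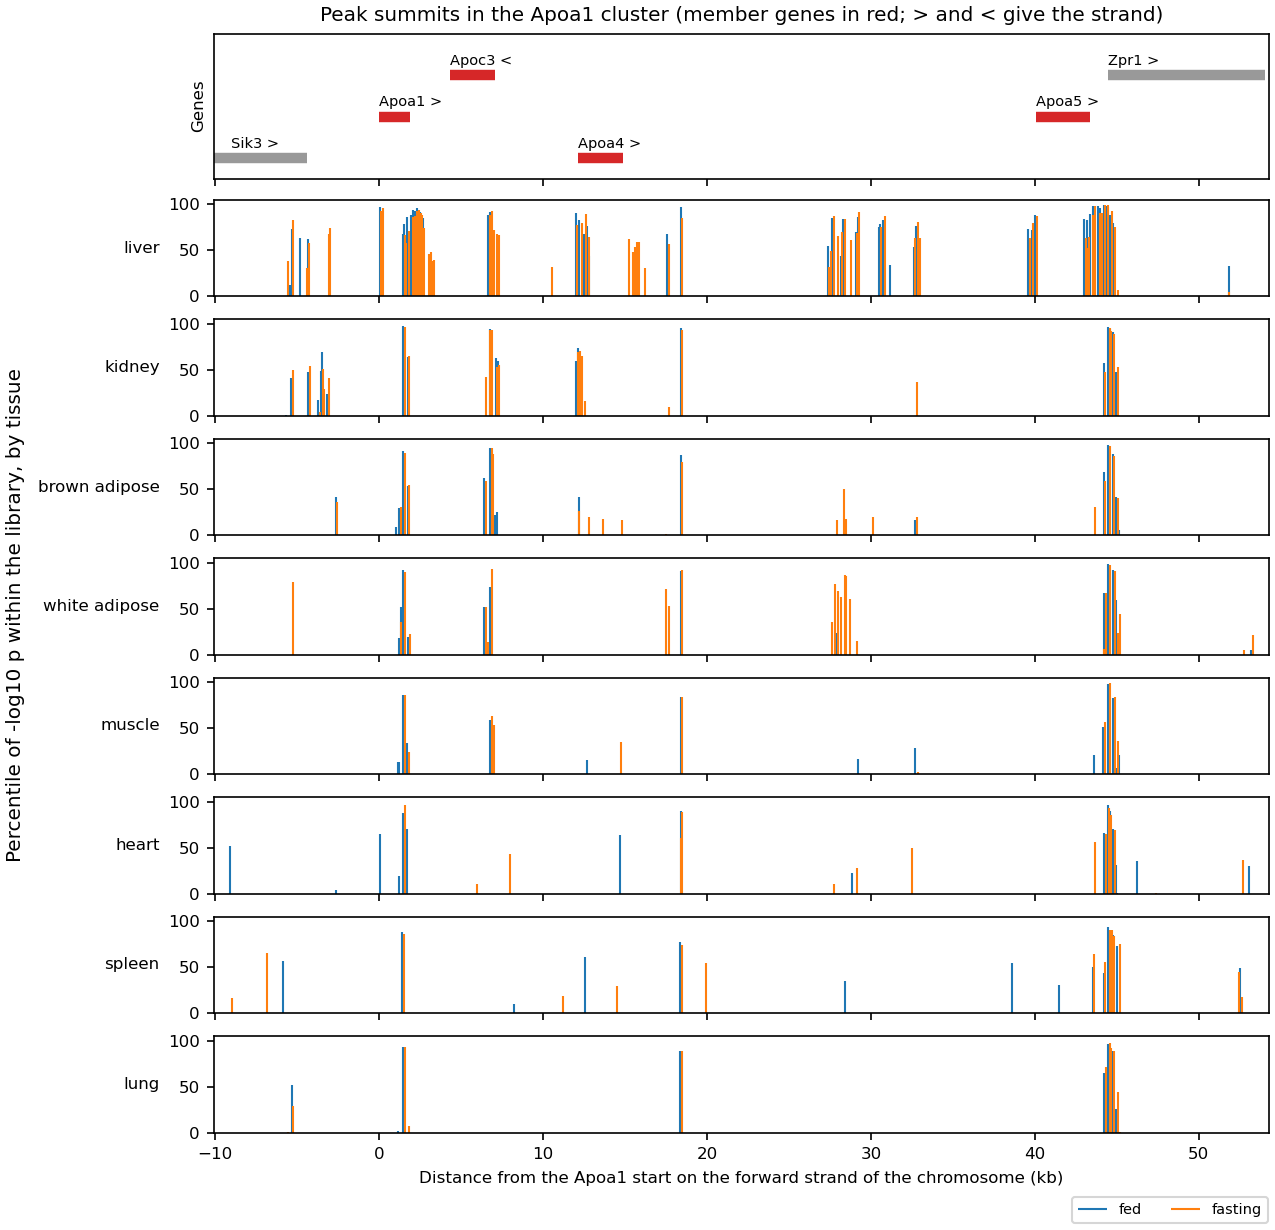
Peak summits in the Apoa1 cluster. Each line is a peak row, at its distance (kb) from the Apoa1 start and with its percentile of -log10 p within the library as height (0 to 100), by tissue and by state (fed blue, fasting orange, drawn slightly apart); gene bodies are at the top. At the starts of Apoa1 and Apoa5 the tallest lines are those of liver, with a fed heart line of 65.3 also at the Apoa1 start, and the summit inside Apoa1 is seen in all 8 tissues.

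In the Apoe cluster the elements were shared more widely, and 22 of 38 had a peak in both liver libraries, 17 in both brown adipose, 14 in both white adipose and 9 to 13 in both libraries of each other tissue. After the element between Apoe and Tomm40, the strongest in liver were chr7:19681181-19681681, at the start of Apoc4, with 97.7 and 97.0 in liver and at most 42.9 elsewhere, and chr7:19668833-19669333, beyond the end of Apoc2, with a peak in all 16 libraries. The liver-restricted pair was weaker, at chr7:19688625-19689125 past the end of Apoc1 (73.0 and 58.8) and chr7:19695224-19695724 between Apoe and Apoc1 (67.2 and 29.9). Around Apoc1, brown adipose and white adipose had tall peaks where muscle, heart and kidney had few.

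**Figure D3:**
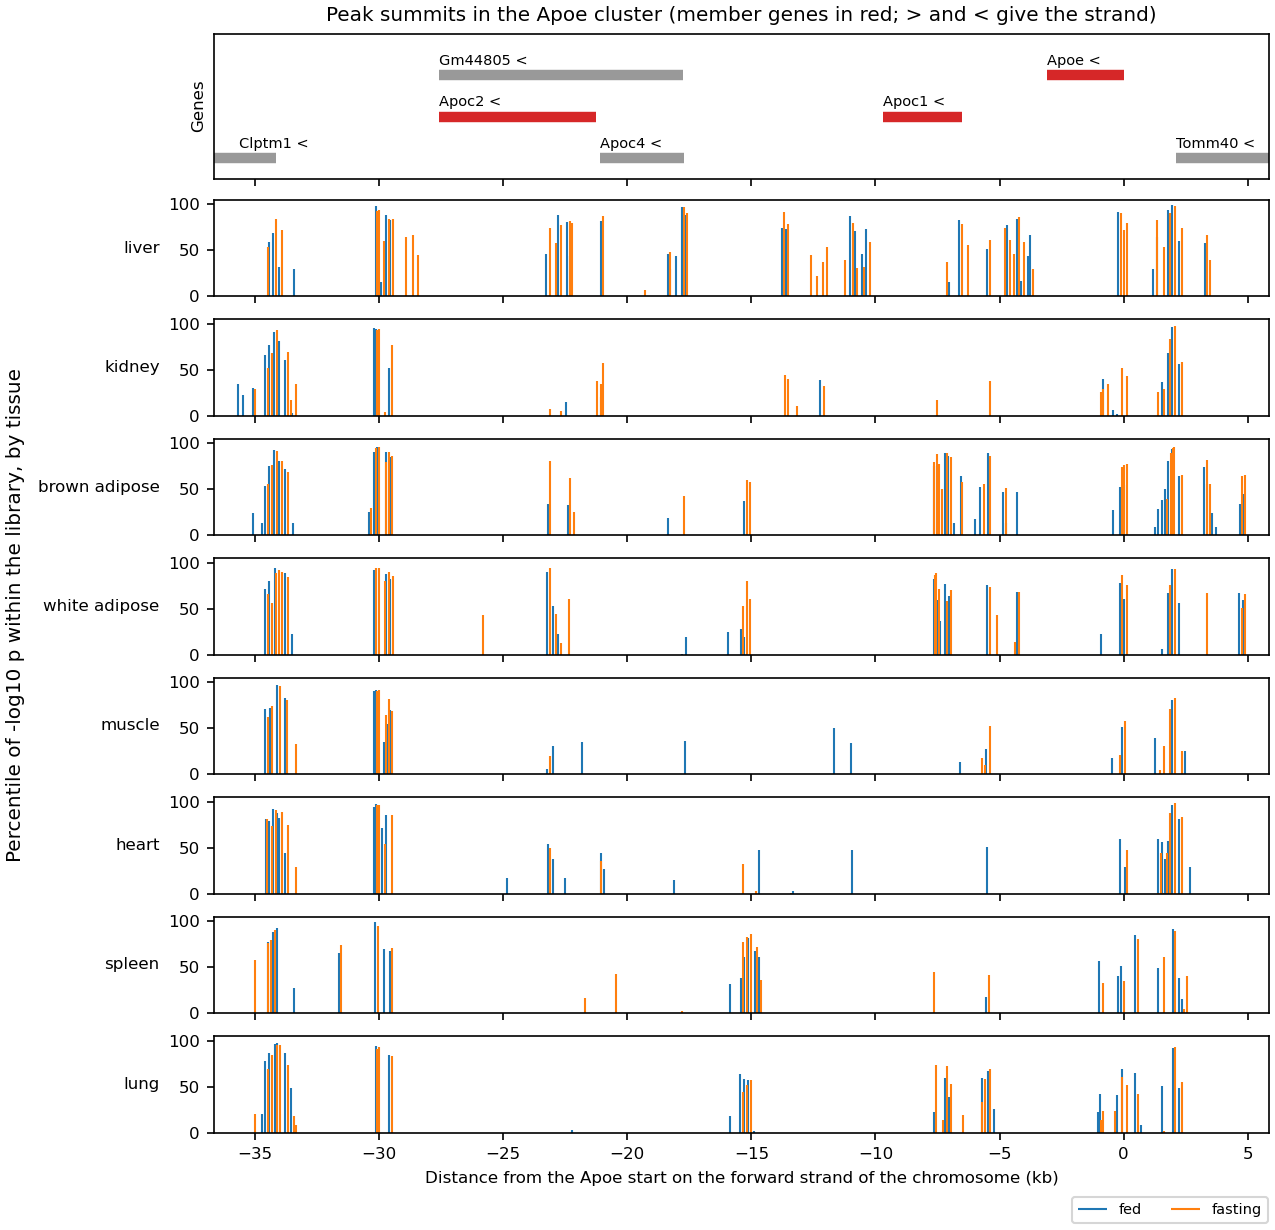
Peak summits in the Apoe cluster, drawn as for the Apoa1 cluster, with distance (kb) from the Apoe start along the forward strand; all genes here run to the left. The summit between Apoe and Tomm40 and those near Clptm1 appear in all 8 tissues, the peak at the Apoc4 start is tall in liver, and the spleen and lung peaks just to the right of the Apoe start are missing in the other 6 tissues.

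At Apob the peaks outside liver were few. The 7 liver-restricted elements included chr12:8018679-8019179 (86.7 and 78.9) and chr12:8017737-8018237 (76.5 and 79.4), both past the end of the gene, and the strongest elements in liver were those at the start and at 880 bp (75.0 and 96.8). An intronic element 13229 bp after the start, chr12:7990758-7991258, showed the opposite distribution, with no peak in fed liver, 54.3 in fasting liver and a peak in 12 of the 14 other libraries. At Apoa2 the start element was liver-restricted. At Apom no element was, and the strongest liver elements stood at the starts of Csnk2b (99.5 and 99.8) and D17H6S53E (94.2 and 92.2), both with a peak in all 16 libraries.

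**Figure D4:**
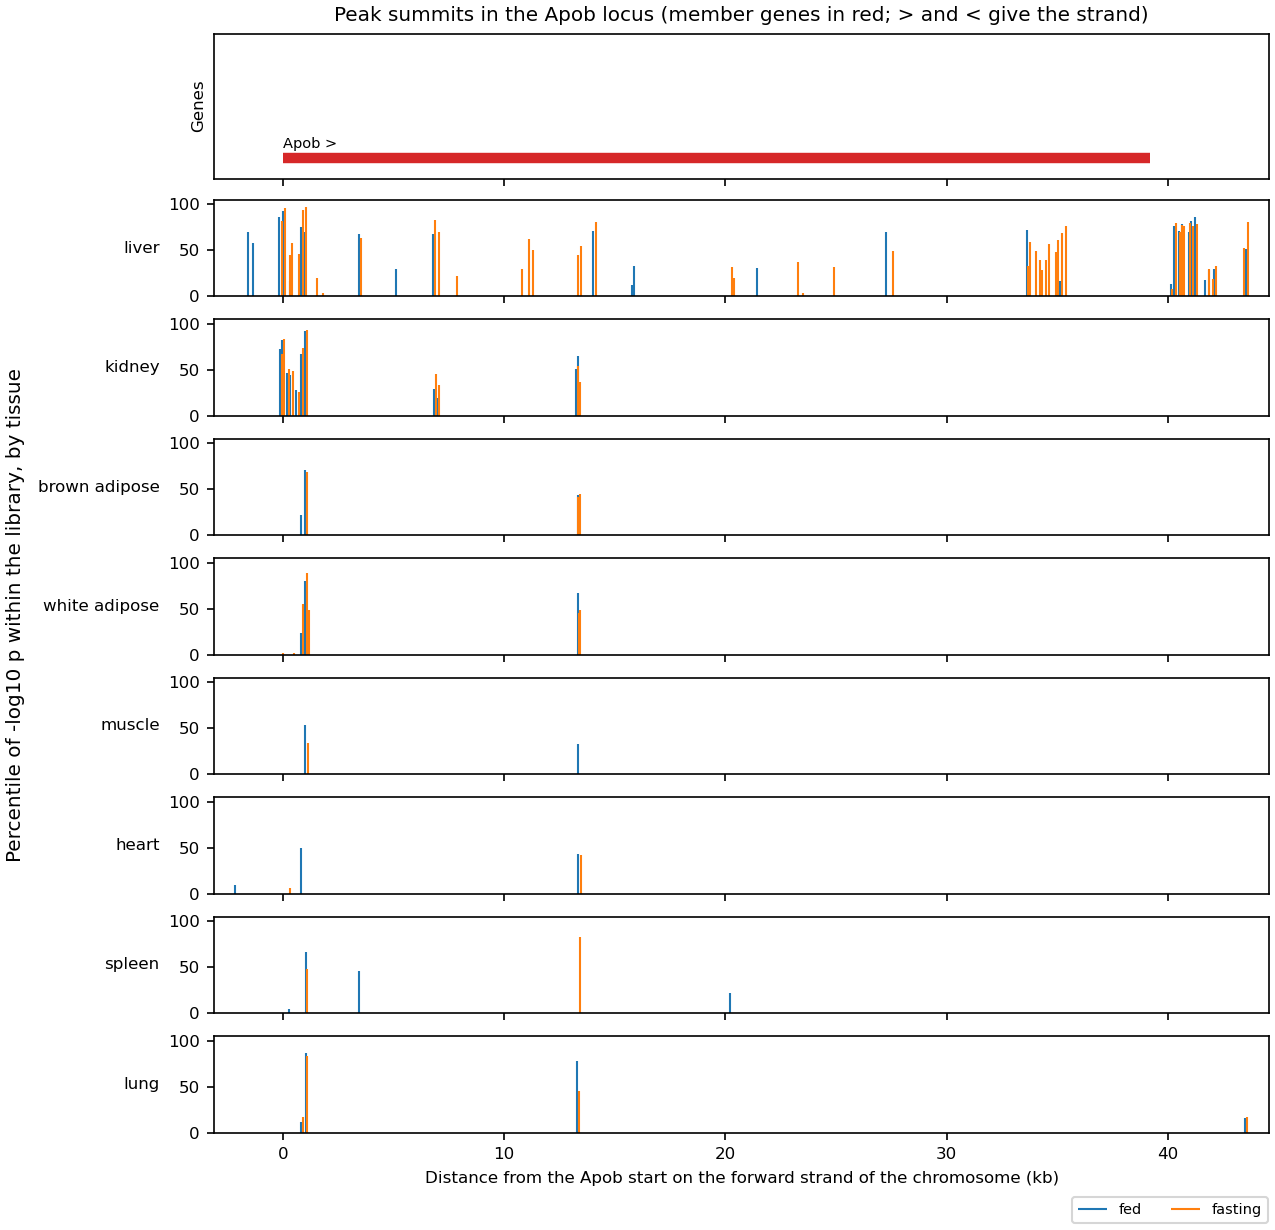
Peak summits at Apob, drawn as for the clusters, with distance (kb) from the Apob start. Liver has lines along the gene and beyond its end, 28 fed and 49 fasting, while the other tissues have 1 to 11, mostly in the first stretch of the gene.

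Between fed and fasting, the liver ranks of these genes were close within 3000 bp, as were those of most genes of high rank. Within 3000 bp 0 of the 10 genes differed by 10 points or more in liver, while 10.3% of 18082 genes were higher by that much in fasting and 15% lower. All 10 had a mean liver rank over 80, and the 95th percentile of such differences over all genes of that rank was 9.54 points. Within 1000 bp 1 of 10 differed by that much: Apom ranked 66.6 on 24 tags in fed and 86.2 on 81 tags in fasting liver, a difference of 19.6 points between single libraries. In that window the 95th percentile in liver was 40.5 points over all genes and 9.72 for genes of mean rank over 80, and the mean rank of Apom was 76.4. The other 9 differed by between -4.48 points (Apoc1) and 4.07 points (Apob). Tags at the summit were higher in fasting at all 10 genes, with a median ratio of 2.03, but this held for 90.3% of 14668 genes, with a median ratio of 1.83, at nearly equal background tags.

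In the other 7 tissues, 61 of 70 gene and tissue pairs had a peak within 3000 bp in at least 1 state, and 19 differed by 10 points or more, 9 higher and 10 lower in fasting, which is 9 and 10 of 61 against 6.84% and 8.43% of pairs over all genes. These pairs were mostly of weak peaks. Apob in heart was 49.99 fed and 6.15 fasting, on 17 and 15 tags at different summits. Apoa4 in heart was 63.6 fed, on 21 tags at 2653 bp, and had no peak in fasting. Apoc1 in kidney had no peak in fed and 37.9 in fasting. Pairs with more tags included Apoc3 in white adipose, with 73.3 fed (75 tags) and 93.7 fasting (111 tags). Apoc2 in brown adipose was 34.3 fed (86 tags, 28.6 expected) and 81.0 fasting (67 tags, 11.4 expected), where background tags also differed, at 12.77 and 6.76. Apoe in brown adipose within 1000 bp was 54.6 fed and 77.6 fasting, with 143 and 44.0 expected tags.

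**Figure D5:**
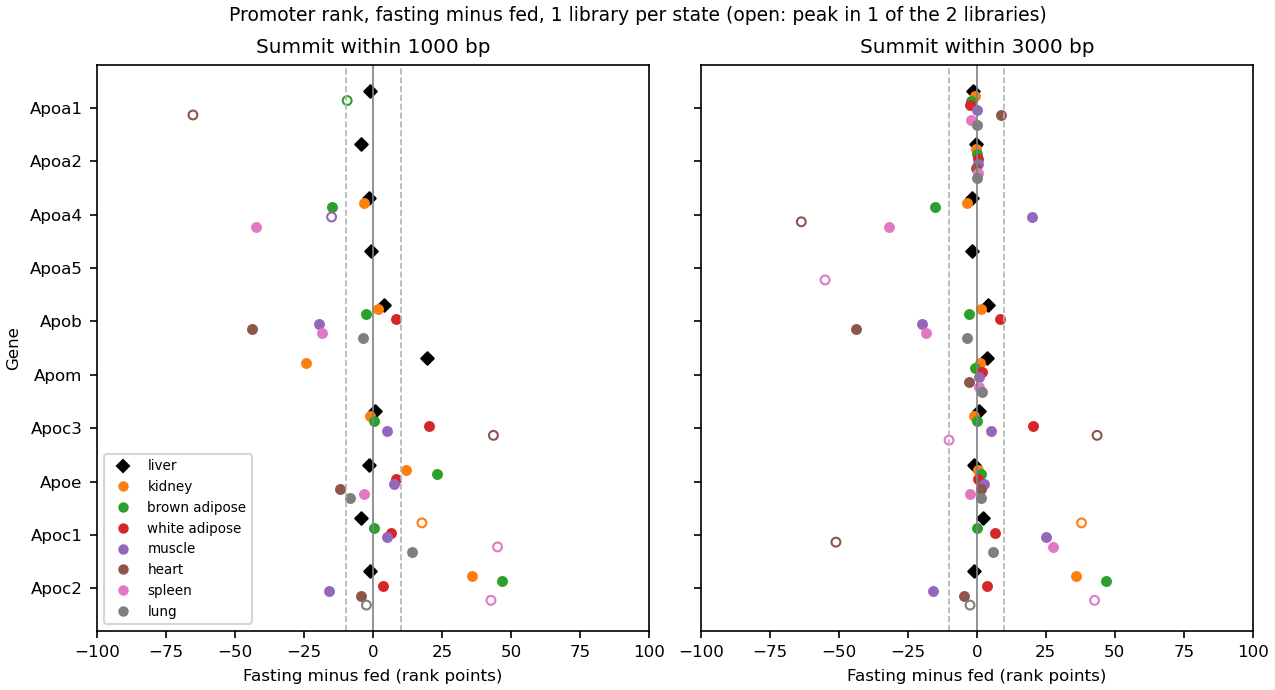
Promoter rank in fasting minus fed (rank points) for each gene (rows) and tissue (colored points; liver as black diamonds), with summits within 1000 bp (left) and 3000 bp (right); open points have a peak in 1 state only, pairs without any peak are left out, and dashed lines mark 10 points. Liver lies within 10 points for every gene but Apom within 1000 bp (19.6), and the widest differences come from other tissues.

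Across tissues no gene had a shared direction that passed the test. In the exact sign-flip permutation test over the 8 tissue differences (two-sided, smallest p 0.0078), 0% of 19719 genes had an adjusted p under 0.05, and 1036 genes but 0 of the 10 members had an unadjusted p under 0.05. The mean differences of the members ran from -12.0 points (Apoa4, lower in 5 tissues and higher in 1) to 13.1 points (Apoc2, higher in 4 and lower in 4). Within 1000 bp Apoc1 was higher in fasting in 6 tissues and lower in 1 by a mean of 10.5 points (SD 15.8 over 8 tissues), with an exact p of 0.0469 and an adjusted p of 0.912.

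Beside the members, 35 other genes of lipoprotein assembly, remodeling, uptake and control were read. None was called between liver and the other tissues. Within 3000 bp 9 of 35 ranked higher in both liver libraries than in the other 14, against 6.1% of all genes. Within 1000 bp 11 did, against 5.23%. The 5 with the largest difference were Apon (91.4 in liver and 5.31 elsewhere, means), Lcat, the cholesterol-esterifying enzyme of high-density lipoprotein (97.8 and 13.8), Hnf4a, a nuclear receptor that controls many liver genes (99.3 and 23.6), Lipc, hepatic lipase (71.9 and 2.29), and Pon1, an esterase carried on high-density lipoprotein (94.9 and 35.0). The means hide single tissues: Hnf4a also ranked 87.9 fed and 95.8 fasting in kidney. Pon1 ranked 93.8 and 93.5 in brown adipose, above fed liver at 92.8, so it was not among the 9. At the other end, Pdia2, a protein disulfide isomerase, had 25.7 in liver and 48.7 elsewhere, and Lpl, lipoprotein lipase, which adult liver makes little of, 71.3 and 87.4. The median difference over the list was 2.37 points. Between states none of the 35 was called, and 3 had an unadjusted p under 0.05 in the sign-flip test, as had 1036 of 19719 genes. Of the other cell-type lists, no gene of 8 macrophage, 6 kidney tubule or 8 epididymis markers ranked higher in both liver libraries than elsewhere. The 6 tubule markers, 1 of which (Umod) marks the thick limb, all had a peak in both kidney libraries, and of the 8 epididymis markers 5 and 4 had one in fed and fasting spleen, and 4 and 1 in the same states of white adipose.

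The gene on another chromosome most like each member over the 16 libraries was found by Pearson r, as a description over libraries that come in pairs by tissue and differ in depth. Within 1000 bp Apoa2 was most like Serpina1c (r = 0.999994) and Apoa5 most like Akr1c6 (r = 0.999996), both of which had peaks in liver and a mean of 0 elsewhere. Genes with similar ranks in liver and 0 elsewhere have r near 1, as Apoa2 had with Apoa5 (r = 0.9998). These r therefore single out no special likeness. Apoa4 was most like C9, a complement gene (r = 0.934), Apoa1 most like Krtap6-3 (r = 0.981) and Apom most like Gm5724 (r = 0.986). Apoc1 was most like Ffar4, a fatty acid receptor gene (r = 0.954), and Apoc3 most like Smoc1 (r = 0.953). Apob was most like Snx22 (r = 0.933), Apoc2 most like Cp, the ceruloplasmin gene (r = 0.854), and Apoe most like Rgsl1 (r = 0.869). Within 3000 bp Ffar4 (r = 0.896) and Smoc1 (r = 0.952) were again nearest to Apoc1 and Apoc3. The nearest genes to 7 others were then Dclre1a for Apoa1 (r = 0.921), Afap1 for Apoa2 (r = 0.977), Mpped1 for Apoa4 (r = 0.910), Shh for Apob (r = 0.934), Serpina3m for Apoc2 (r = 0.846), Rbpms for Apoe (r = 0.942) and Deaf1 for Apom (r = 0.985). The 3000 bp ranks of Apoa2 and Apom were those of the peaks nearer to Tomm40l and Bag6. Afap1 and Deaf1 were thus matched to those peaks.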

How the data were processed

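The authors deposited ATAC-seq peak lists. By the labels and the study's methods, trimmed reads were aligned to GRCm38 with Bowtie2, duplicates were removed and peaks were called with MACS2; versions are not given in the sources used here. The fold enrichment deposited by the authors is a ratio of summit to expected tags, each plus 1. The deposited -log10 p and -log10 q are those of a Poisson test run by the authors in each library. None is scaled between libraries, so ranks within a list were compared. The lists hold 298996 to 299529 rows each.

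Starts were those of GENCODE vM21, an earlier release than the study's. The members, lists and rules were chosen with earlier results of these data known. Named were the 10 members, the pathway genes with the 6 largest and 2 smallest liver differences, the gene most like each member, neighbors nearer to a ranking summit, and per locus up to 3 elements of highest mean liver rank and up to 2 liver-restricted ones; other elements were chosen after their values were seen. A pathway gene and a most-like gene that this rule named are not reported here. Tags solved from fold and p were whole within 0.05 in every row, and for equal depth they were thinned to the shallowest background. Exact permutation tests were adjusted over all genes by Benjamini-Hochberg. Alternatives covered the window, fold ranking, q, nearest starts, depth, merged rows and left-out tissues, and the combined ones were added after seeing the data. The steps were tested on simulated data with known answers. Python 3.11.15, numpy 2.4.6, pandas 2.3.3 and numba 0.67.0 were used.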

Additional observations from a re-analysis of the deposited data

Results flagged for a closer look

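Tissues moved in opposite directions between states at 4 members within 3000 bp; each side is 1 fed and 1 fasting library, so the difference between tissues was not tested. Apoa4 was higher in fasting muscle by 20.1 points and fell by 63.6 points in fasting heart, a difference of 83.6 points. Apoc1 was higher in fasting kidney by 37.9 points and fell by 51.0 points in fasting heart, a difference of 89.0 points. Apoc2 was higher in fasting brown adipose by 46.7 points and fell by 15.8 points in fasting muscle, a difference of 62.5 points. Apoc3 was higher in fasting heart by 43.6 points and fell by 10.1 points in fasting spleen, a difference of 53.6 points. In 3 of these pairs at least 1 library had no listed peak, and the muscle peaks of Apoa4 lay at 624 bp in fed and 2608 bp in fasting. The muscle peaks of Apoc2 lay at chr7:19677416 on 23 tags in fed and at chr7:19676012 on 30 tags in fasting. These are 525 and 852 bp after 2 different annotated starts.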

How the results depend on the processing

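The count of members highest in both liver libraries depended most on the window. Within 3000 bp it was 2, but 3 at equal depth (with Apoe) and 3 with merged rows (with Apob). Within 1000 bp it was 6, also at equal depth, and 4 by fold. It was 4 by the nearest protein-coding start and 0 by fold within 3000 bp. With a tissue left out it ran from 2 to 4, the 4 without kidney. Liver-restricted elements numbered 14 of 123, 9 of 82 at the wider element, 10 of 94 from rows with q under 1e-06, 15 with absence judged on rows with q under 0.01, and 14 with the loci extended by 3000 bp. No member was called under any alternative in either test.

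Liver minus others turned for Apoa2 from -4.33 to 87.8 within 1000 bp, 94.3 by the nearest start, 87.9 within 1000 bp at equal depth and 53.4 within 1000 bp by fold, since the Tomm40l peak then no longer counts. By fold it turned for Apoa1 (-22.4) and Apoe (-0.19), and by fold within 1000 bp for Apoc1 (-1.64). For Apom it ran from -1.58 (without spleen) to 3.27 over the left-out tissues.

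Fasting minus fed, never called, also turned sign. For Apoa1 it was -9.49 within 1000 bp, -1.61 by fold, -0.067 at equal depth, -8.07 within 1000 bp at equal depth, -9.82 within 1000 bp by fold, and -1.14 (without heart) to 0.44 over the left-out tissues. For Apoa2, in the same order of the first 5 settings, it was -0.55, -0.98, -0.093, -0.52 and -3.15. It was 2.18 for Apoa5 within 1000 bp by fold, 6.87 for Apob at equal depth under both windows, and -0.60 for Apom within 1000 bp. The cause of these sign changes was not tested. The sign-flip test paired fed and fasting libraries by tissue; within a tissue, no paired analysis was possible because there is 1 library per state. Depth limits the precision of low ranks, as for Apoa5 in fed spleen (18 tags), and background ran from 2.8 to 12.8 tags over the libraries.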

Other observations

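At the Apom locus, an intronic element of Bag6 at -8676 bp from the Apom start (chr17:35140476-35140976) ranked 89.1 in fed and 91.5 in fasting brown adipose and 32.3 in fasting spleen, with no peak in the other 13 libraries. At the Apoe cluster, elements past the end of Apoc1 (chr7:19687968-19688468 and chr7:19685219-19685719) ranked 87.8 and 79.2, and 74.6 and 91.3, in fed and fasting liver, with at most 47.7 and 44.5 elsewhere. These elements were picked after their values were seen and were not tested.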
